A study of Mus musculus with 4 samples.

Results

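The cells described here are the natural killer (NK) gene cells found in a sort of GFP+ cells from mouse lung. A cell was a member if it held at least 2 UMIs (unique molecular identifiers, each counting 1 captured RNA molecule) summed over Gzma, Klre1, Ncr1 and Klrd1, at most 1 UMI summed over Cd3e, Cd3d and Cd3g, and less than 4% of its UMIs from Sftpc. The members were thus chosen by the measured counts of these 8 genes, and the rule found 79 of 10077 cells. The study asked how Cdc42, a small GTPase that organises actin, acts in alveolar type II (AT2) cells when the lung regrows after pneumonectomy (PNX, removal of part of the lung).

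All mice carried Sftpc-CreER, a tamoxifen-dependent Cre recombinase driven by the AT2 gene Sftpc, and the Rosa26-mTmG reporter, which turns to GFP where Cre acts, and all received 4 doses of tamoxifen. Null PNX mice were Sftpc-CreER; Cdc42flox/-; Rosa26-mTmG at day 21 after PNX, and null sham mice had the same alleles after sham surgery. Control PNX mice were Sftpc-CreER; Cdc42flox/+; Rosa26-mTmG at day 21 after PNX, and control sham mice had those alleles after sham surgery. The labels give postnatal day 80 for every group and do not tie that age to surgery or to tissue collection. The null mice carry 1 null Cdc42 allele in every cell, NK cells included, and Cre is driven by an AT2 promoter, so no deletion of the floxed allele in NK cells is part of the design. Each group was 1 library and the labels do not say how many mice went into it, so no difference below has a replicate check and none was tested.

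NK cells are innate lymphocytes that kill infected or transformed cells by releasing perforin and granzymes and that secrete chemokines and interferon-γ. Activating receptors such as NCR1 (NKp46) and NKG2D drive them, and inhibitory receptors that bind MHC class I, the Ly49 (Klra) family and CD94 with NKG2A, restrain them. Mouse NK cells lose CD27 and gain CD11b and KLRG1 as they mature. Lung NK cells are largely of the mature, circulating kind. They are not targets of a Cre driven by Sftpc.

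The 4 libraries held 2111 to 3344 cells and 9868802 to 24897537 UMIs. The median UMI count per cell was 9705.5 in null PNX, 4844.5 in null sham, 4713 in control PNX and 4503 in control sham. The lowest UMI count of any cell was 2669 in null PNX, 1379 in null sham, 1171 in control PNX and 691 in control sham in the deposited table. Doublets were not called, and 54 barcodes occurred in more than 1 library, of which 1 was a member's. Every member with Nkg7 also held Sftpc UMIs, at medians of 0.452%, 0.377%, 0.546% and 0.681% of UMIs in null PNX, null sham, control PNX and control sham, against medians of 0.527%, 0.409%, 0.425% and 0.792% in the T cells of the same libraries.

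The NK label was kept for 48 of the 79 members. For 11 of these, which had no Gzma UMI and are described below, it is not settled. These 48 had at least 1 UMI of Nkg7, which encodes a cytotoxic granule membrane protein, and at most 0.209% of their UMIs from Cd74, the invariant chain of MHC class II; they are called Nkg7-positive members below. A further 30 members had between 0.482% and 8.74% of their UMIs from Cd74, with a median of 4.03%, and are called class II-high. The last member, a null PNX cell of 24280 UMIs with 73 Krt8 and 88 Krt18 UMIs and no Nkg7, was in neither set. The division, at 0.3% Cd74 and 1 Nkg7 UMI, was made after the values were seen. The median Cd74 share was 0.0236% in T cells and 0.440% in cells with at least 4% Sftpc.

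Klrd1, the CD94 chain of the NKG2 receptors, brought most of the class II-high cells in. It was the only rule gene in 25 of those 30 cells, and in 0 of the 48 Nkg7-positive members. Over the 30 cells Gzma had 2 UMIs, Ncr1 1 UMI and Nkg7 1 UMI. Cst3, a gene high in dendritic cells, reached 20453 CPM (counts of the gene per 1000000 UMIs of the summed cells), and the class II genes H2-Aa and H2-Ab1 reached 20086 and 14564 CPM. Dendritic markers were present: Flt3, the receptor for the dendritic growth factor Flt3 ligand, in 16 cells, Cd209a in 14, Zbtb46 in 7 and Xcr1 in 5. All 7 dendritic markers on the list had UMIs in these cells, whereas 6 of the 7 were at 0 in the Nkg7-positive members, with 1 UMI in all. Siglech, a receptor of plasmacytoid dendritic cells, had at least 2 UMIs in 11 class II-high cells, 9 from null PNX, 2 from null sham and none from the control libraries. These counts depend on the minimum of 2 rule UMIs and are not adjusted for UMIs per cell, which were highest in null PNX. The null PNX cell in neither set held 10 Siglech UMIs.

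**Figure D1:**
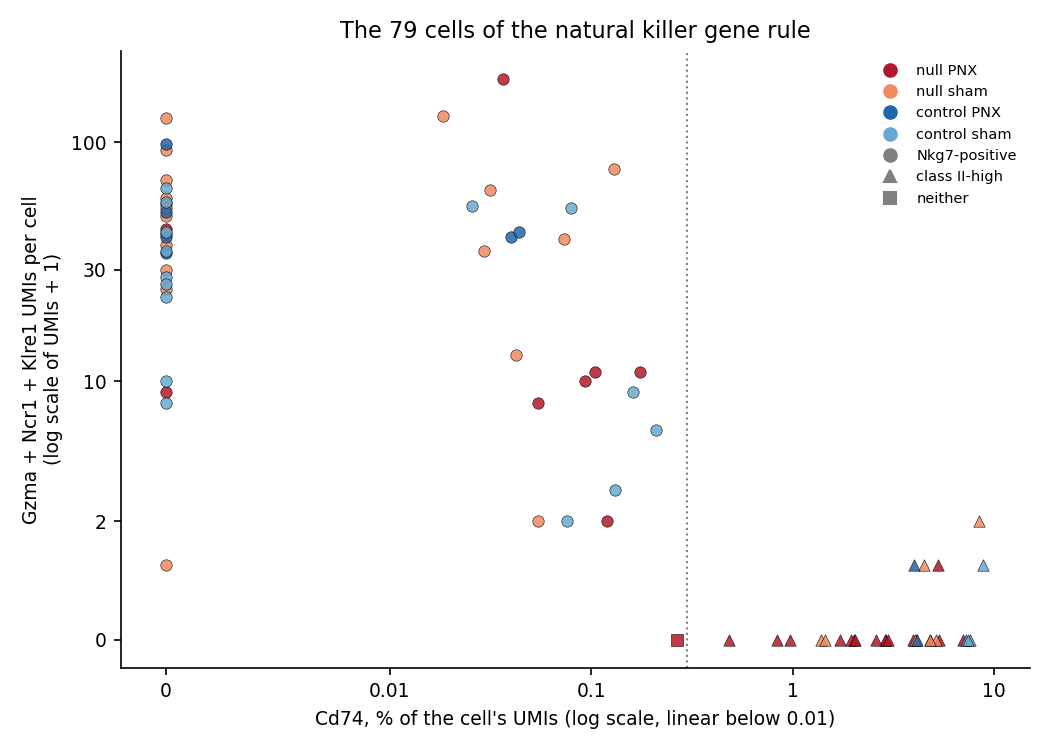
Each point is 1 of the 79 members, placed by the percent of its UMIs from Cd74 (x axis, log scale, linear below 0.01%) and by its summed Gzma, Ncr1 and Klre1 UMIs (y axis, log scale of UMIs + 1), with colour for the library, shape for the set and a dotted line at 0.3% Cd74. The 30 class II-high members lie right of the line at or near 0 of these 3 genes, and the Nkg7-positive members lie left of it.

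At the edges of the rule, 15 members had a rule sum of exactly 2, of which 2 were Nkg7-positive, and 103 cells just outside had a sum of 1. Only 2 members, both from null PNX, had 1 Cd3 UMI and the rest had none. On the Sftpc limit, the member with the most was an Nkg7-positive null sham cell at 3.56%, with 11 Gzma, 169 Sftpc and 81 Sftpa1 UMIs. Of 9 cells left out by that limit alone, the nearest was a null PNX cell at 4.11% Sftpc with a rule sum of 56 in 25910 UMIs. No cell with 5 or more Nkg7 UMIs that met the Cd3 and Sftpc limits was missed by the rule.

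By the rule alone, members were 1.05% of null PNX cells (25 of 2370), 0.807% of null sham cells (27 of 3344), 0.355% of control PNX cells (8 of 2252) and 0.900% of control sham cells (19 of 2111). Of these, the Nkg7-positive members were 8 in null PNX, 19 in null sham, 6 in control PNX and 15 in control sham. Their shares were 0.338% in null PNX (95% exact binomial interval 0.146 to 0.664), 0.568% in null sham (0.342 to 0.886), 0.266% in control PNX (0.0978 to 0.579) and 0.711% in control sham (0.398 to 1.17). Both PNX libraries were below both sham libraries, and all 4 intervals overlapped. The class II-high members made up 16 of the 25 members in null PNX, against 8 of 27 in null sham, 2 of 8 in control PNX and 4 of 19 in control sham. Intervals here and below are 95% intervals and cover counting error only.

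T cells, which passed the same gate, gave a second yardstick. Cells with at least 2 Cd3 UMIs and under 4% Sftpc numbered 112 in null PNX, 175 in null sham, 66 in control PNX and 109 in control sham. Per 100 T cells there were 7.14 Nkg7-positive members in null PNX (3.01 to 14.6), 10.9 in null sham (6.38 to 17.5), 9.09 in control PNX (3.22 to 20.9) and 13.8 in control sham (7.45 to 23.7). The range between libraries was narrower than for the shares of all cells, and the intervals overlapped. Since the lowest UMI count differed between libraries, shares were also taken above it. Among cells with at least 2669 UMIs the Nkg7-positive members were 8 in null PNX, 12 in null sham, 3 in control PNX and 8 in control sham. At that depth the shares were 0.338% in null PNX, 0.429% in null sham, 0.153% in control PNX and 0.471% in control sham.

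**Figure D2:**
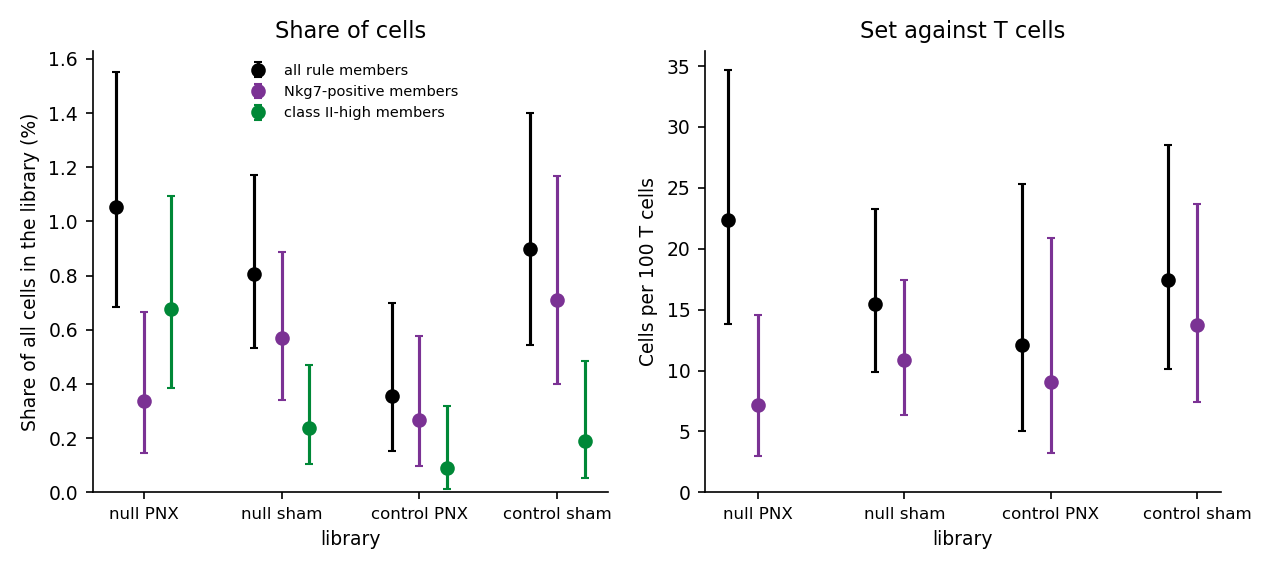
The left panel gives members as a percent of all cells in each library and the right panel gives them per 100 T cells, for all rule members, Nkg7-positive members and, on the left, class II-high members, with bars for exact 95% intervals of counting error. Nkg7-positive members were between 0.266% and 0.711% of cells, with overlapping bars, and the class II-high share was highest in null PNX at 0.675%. These shares are not adjusted for UMIs per cell, which were highest in null PNX.

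From here the results concern the 48 Nkg7-positive members, whose UMIs were summed per library to 34506 in null PNX, 64629 in null sham, 17747 in control PNX and 45980 in control sham. A single UMI in these sums is worth the most in control PNX, where a gene at 0 could still be at up to 169 CPM (3 UMIs of the total), against 86.9 CPM in null PNX, 46.4 in null sham and 65.2 in control sham. Single cells also weigh heavily, since the deepest cell held 8233 of the null PNX UMIs. Several ratios below are therefore also given without the deepest cell of each library, or without the 1 cell with most UMIs of the gene.

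Among the genes of the rule, Ncr1 (7:4337724-4345164 on the plus strand of mm10) and Klrd1 were the most even. Ncr1 was at 2405 CPM in null PNX, 2213 in null sham, 1747 in control PNX and 1696 in control sham, and was found in 47 of the 48 cells. Klrd1 (6:129591782-129598775) was at 1159 CPM in null PNX, 1145 in null sham, 1578 in control PNX and 1370 in control sham. Klre1 (6:129577905-129585827), a lectin-like receptor gene next to it on the plus strand, was at 406 CPM in null PNX, 727 in null sham, 394 in control PNX and 631 in control sham. The deepest null PNX cell held 10 of its 14 UMIs there, and without it Klre1 was at 152 CPM. Gzma (13:113093825-113100981, minus strand), the granzyme A protease, was uneven, with 5188 CPM in null PNX, 12610 in null sham, 15326 in control PNX and 6916 in control sham. Since the rule used these 4 genes, their presence is no finding, and their spread across libraries is a description. The promoters of Gzma and Ncr1, and of Nkg7, which the rule did not use, are printed to show the sequence at the start of the genes that define these cells, 250 bases before to 50 bases after the annotated start, from RefSeq on GRCm38.p6, written 5′ to 3′ on the strand of the gene.

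Gzma, chr13:113100932-113101231, minus strand: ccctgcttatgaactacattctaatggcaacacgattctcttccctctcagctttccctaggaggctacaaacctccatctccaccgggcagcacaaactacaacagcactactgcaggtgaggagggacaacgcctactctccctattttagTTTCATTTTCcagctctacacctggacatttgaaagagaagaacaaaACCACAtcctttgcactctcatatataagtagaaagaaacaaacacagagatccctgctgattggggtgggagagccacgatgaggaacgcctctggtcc
Ncr1, chr7:4337465-4337764, plus strand: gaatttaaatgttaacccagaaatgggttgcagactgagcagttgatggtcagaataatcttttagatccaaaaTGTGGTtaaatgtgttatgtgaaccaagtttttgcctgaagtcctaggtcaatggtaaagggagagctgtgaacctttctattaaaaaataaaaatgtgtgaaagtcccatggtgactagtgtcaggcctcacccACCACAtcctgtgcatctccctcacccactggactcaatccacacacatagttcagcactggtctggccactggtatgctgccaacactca
Nkg7, chr7:43436888-43437187, plus strand: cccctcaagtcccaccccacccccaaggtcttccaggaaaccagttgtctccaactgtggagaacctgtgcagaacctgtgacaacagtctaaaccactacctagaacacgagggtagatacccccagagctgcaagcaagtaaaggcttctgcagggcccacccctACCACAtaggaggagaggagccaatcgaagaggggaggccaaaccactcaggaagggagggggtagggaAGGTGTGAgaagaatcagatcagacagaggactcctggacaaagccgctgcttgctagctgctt

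Capitals mark matches, on either strand, to letters that lymphoid regulators are known to bind: TGTGGT for RUNX factors, GAAA, any 2 bases and GAAA again for interferon regulatory factors, and AGGTGTGA for T-box factors, the family of Eomes and Tbx21. A search for the ETS letters CCGGAAGT found none in these 3 windows. TGTGGT occurred on 1 strand or the other in each of the 3 windows printed and in 16.8% of 32851 promoter windows of this length, the interferon regulatory factor letters occurred in the Gzma window and in 3.44% of all, and AGGTGTGA occurred in the Nkg7 window and in 1.28% of all. Ncr1 has more than 1 annotated start, and its window chr7:4337474-4337773, which is not printed, held 2 matches, both to TGTGGT. Klre1, a rule gene that also has more than 1 annotated start, is not printed. Its window chr6:129577963-129578262 held 1 match, to TGTGGT, and its window chr6:129578036-129578335 held 0 matches. These are matches of letters and show no binding.

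Receptors on the activating side were present in every library. Klrk1, which encodes NKG2D, was at 898 CPM in null PNX, 681 in null sham, 845 in control PNX and 631 in control sham, in 39 of the 48 cells. Klrb1c, which encodes NK1.1, was at 696 CPM in null PNX, 572 in null sham, 676 in control PNX and 348 in control sham. The intervals of the 4 libraries overlapped for both genes. Adaptors that carry signals from such receptors were among the most abundant genes: Fcer1g stood at 2463 CPM in null PNX, 2228 in null sham, 1465 in control PNX and 1544 in control sham, and Tyrobp (DAP12) at 1826 CPM in null PNX, 3187 in null sham, 2141 in control PNX and 2088 in control sham.

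Inhibitory receptors were less even. Klrc1, the NKG2A chain that pairs with Klrd1, was at 725 CPM in null PNX, 356 in null sham, 507 in control PNX and 435 in control sham. Klra7, the Ly49G receptor gene, had no UMI in null PNX, 36 UMIs in null sham, 2 in control PNX and 13 in control sham. Klra4, an activating Ly49 gene in the same cluster on chromosome 6, had 1 UMI (29.0 CPM) in null PNX, 542 CPM in null sham, 845 in control PNX and 500 in control sham. Klra4 was thus low in null PNX alone of the 4 libraries. The Klra7 UMIs of null sham came from 5 of 19 cells, of which 1 held 19 and another 14, and 2 of 6 control PNX cells held 1 each, so its levels do not order the libraries. Klra genes are near-identical copies, so reads may be split between them and single members are uncertain.

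Of the cytotoxic granule genes, Nkg7 itself was at 3594 CPM in null PNX, 5725 in null sham, 4677 in control PNX and 3936 in control sham. Ctsw, a cysteine protease of NK and CD8 T cells, was at 1101 CPM in null PNX, 650 in null sham, 845 in control PNX and 652 in control sham. Gzmb, granzyme B, varied most of these: 493 CPM in null PNX, 1454 in null sham, 1634 in control PNX and 152 in control sham. Prf1, perforin, was sparse, with 2 UMIs in null PNX, 8 in null sham, 1 in control PNX and 3 in control sham, too few for any comparison. The transcription factors that specify NK cells were also sparse, at 22 UMIs in all for Eomes and 25 for Tbx21, and both had UMIs in all 4 libraries.

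Cdc42, on chromosome 4, was at 898 CPM in null PNX (610 to 1275), 712 in null sham (521 to 949), 1071 in control PNX (645 to 1672) and 652 in control sham (440 to 931). The null library was lower than the control library after PNX and higher after sham surgery, and the 4 intervals overlapped. This 3′ count also reads any transcript that keeps the gene's end. Of the 23 genes on the list of Cdc42 and its effectors, 12 were measured (at least 20 UMIs over both sums) in null PNX against null sham, of which none was 2-fold higher and 1 was 2-fold lower, where 16.4% of all measured genes were past 2-fold. In control PNX against control sham 1 of 11 was lower, beside 15.5% of all genes. None of 13 was past 2-fold in null sham against control sham, beside 12.3%, and none of 11 in null PNX against control PNX, beside 16.7%. With so few genes measured, these counts do not set the list apart.

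T cells of the same libraries showed what set the Nkg7-positive members apart. Of 1380 genes measured (at least 20 UMIs over both kinds of cell in every library and 10 CPM in one kind throughout), 23, or 1.67%, were at least 2-fold higher than in T cells in all 4 libraries, and 7, or 0.507%, were at least 2-fold lower in all 4. The count of 23 includes rule genes, and the 7 include the Cd3 genes that the rule used. Outside the rule, Ccl4 and Ccl5, chemokines that draw in other leukocytes, were higher in every library: Ccl4 was 44.0-fold higher in null PNX, 115-fold in null sham, 169-fold in control PNX and 16.6-fold in control sham, and Ccl5 was 10.2-fold higher in null PNX, 13.0-fold in null sham, 105-fold in control PNX and 15.4-fold in control sham. In null sham 1 cell held 189 of the 274 Ccl4 UMIs and in null PNX 1 cell held 30 of 46, and without these cells Ccl4 was 20.1-fold higher in null PNX and 37.4-fold higher in null sham. Fcer1g was 9.63-fold to 27.6-fold higher and Tyrobp 8.24-fold to 29.3-fold. Il2rb, the β chain of the interleukin-2 and interleukin-15 receptors, was 6.62-fold higher in null PNX (3.44 to 12.2), 8.23-fold in null sham (4.74 to 14.3), 3.41-fold in control PNX (0.995 to 9.44) and 3.54-fold in control sham (1.82 to 6.61). Dok2, Wls, AW112010 and the kinase gene Txk were also among the 15 leading genes, at 2.94-fold or more in each library. Without the null PNX cell that held 11 of the 21 Dok2 UMIs there, Dok2 was 2.29-fold higher in that library.

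Genes of T cell receptor signalling were among those lower than in T cells, with the Cd3 genes at 0 apart from 1 Cd3d UMI in null PNX. Lat, the adaptor of the T cell receptor, was 0.302 times the T cell level in null PNX, 0.333 in null sham, 0.229 in control PNX and 0.268 in control sham. Cd28, the T cell costimulator, was 0.498 times in null PNX, 0.134 in null sham, at most 0.427 in control PNX and 0.283 in control sham. Il7r, the interleukin-7 receptor, was 0.479 times in null PNX, 0.130 in null sham, at most 0.492 in control PNX and 0.372 in control sham. These Il7r values rest on few UMIs. In null PNX 1 cell held 4 and another held 1, and in control sham 1 cell held 4 and another held 1. Cd28 in null PNX and Il7r in both PNX libraries were only just past 2-fold lower. Rasgrp1 and Txnip were lower too but not past 2-fold in every library, at up to 0.512 and 0.528 times.

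**Figure D3:**
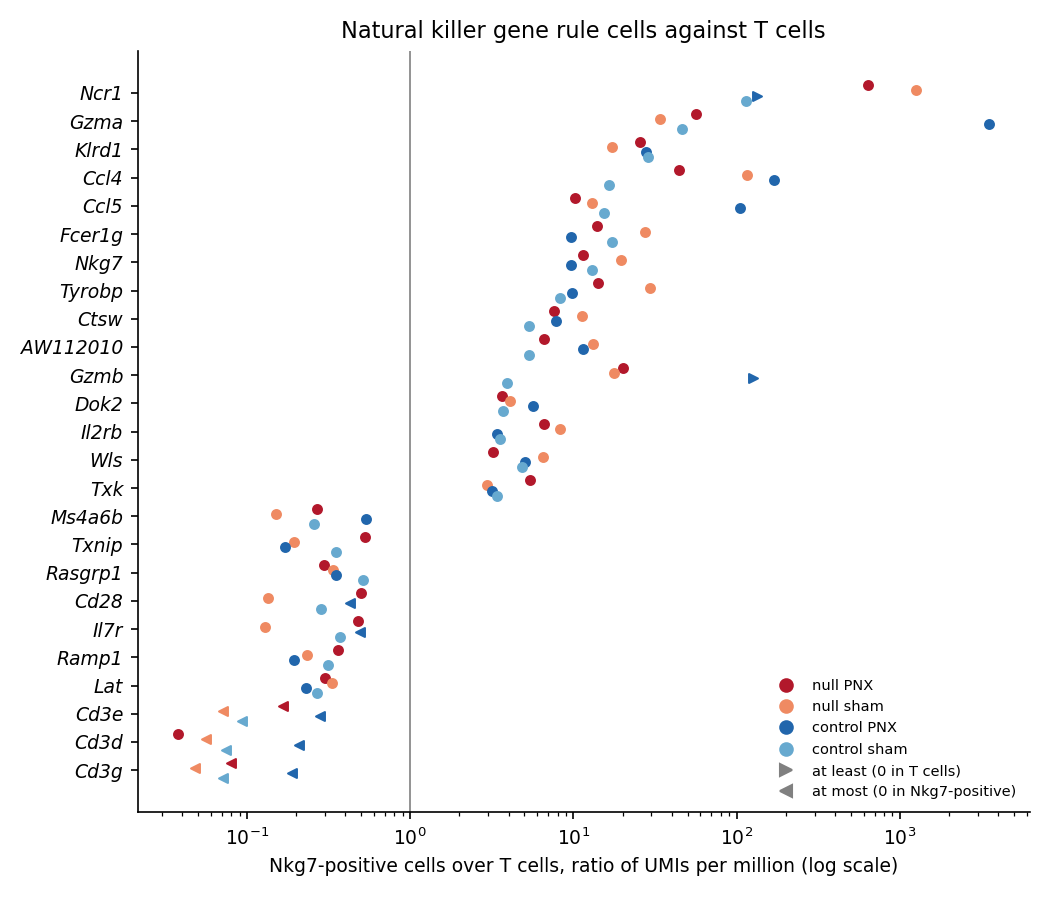
Ratios of CPM in the summed Nkg7-positive members over the summed T cells of the same library (x axis, log scale) for the 15 highest and 10 lowest genes by the rule for named genes, with 1 point per library and arrows for bounds where 1 side had 0 UMIs. The upper 15 genes, led by Ncr1, were at least 2.94-fold higher in every library, and Gzma reached 3526-fold in control PNX, where T cells held 1 Gzma UMI.

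When all 79 members were used instead, 30 of 1535 genes (1.95%) were 2-fold higher than in T cells in all libraries and 31 (2.02%) were lower, and the leading genes then took in H2-Aa, H2-Ab1, Cd74 and Cst3. Those are genes of the class II-high cells. Between libraries, all 79 members gave in null PNX against null sham 413 of 2193 genes past 2-fold (18.8%), 295 higher (13.5%) and 118 lower (5.38%). In control PNX against control sham they gave 154 of 836 (18.4%), 80 higher (9.57%) and 74 lower (8.85%). In null sham against control sham they gave 176 of 1430 (12.3%), 115 higher (8.04%) and 61 lower (4.27%), and in null PNX against control PNX 484 of 1605 (30.2%), 362 higher (22.6%) and 122 lower (7.6%). The last was the highest share of the 4, in the contrast where class II-high cells were 16 of 25 members against 2 of 8. Gzma over all members was 1039 CPM in null PNX, 6096 in null sham, 6025 in control PNX and 3689 in control sham.

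PNX was first set against sham surgery in null mice. Of 745 genes measured in null PNX against null sham, 122, or 16.4%, were past 2-fold, 50 higher (6.71%) and 72 lower (9.66%). Ccl5 was at 6202 CPM in null PNX and 29986 CPM in null sham, a ratio of 0.207 (0.179 to 0.238), and it was found in 5 of 8 cells against 19 of 19 cells. Irf8, an interferon regulatory factor of mature NK cells, was at 86.9 CPM in null PNX against 1160 CPM in null sham, a ratio of 0.0749 (0.0151 to 0.228), and of 0.0289 without the deepest cell of each library. Klrg1, the inhibitory receptor gained late in maturation, was at 29.0 CPM in null PNX against 495 CPM in null sham, a ratio of 0.0585 (0.00144 to 0.350). The deepest cell held the only Klrg1 UMI of null PNX, so without the deepest cells the ratio was at most 0.215. Cma1, a chymase gene, had no UMI in null PNX against 25 UMIs in null sham, which puts its ratio at 0.225 at most. Itgb2, the β2 integrin chain, was at 174 CPM in null PNX against 650 CPM in null sham, a ratio of 0.268 (0.0930 to 0.633), and of 0.152 without the deepest cells.

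Read as a list, 7 of the 11 measured late maturation genes (of 18 listed) were 2-fold lower in null PNX than in null sham and none was higher, with a median log2 ratio of -1.56 beside 0.07 over all genes measured. The 7 were Ccl5, Irf8, Klrg1, Cma1, Itgb2, Gzmb and Rap1b. Early maturation genes showed 3 higher and 1 lower of 7 measured, with a median of 0.81. The list of type 1 innate lymphoid cell and tissue residence genes, which also holds Ltb, had 2 higher and none lower of 4 measured. Its median was 0.76. Ltb, lymphotoxin β, was at 2029 CPM in null PNX against 155 CPM in null sham, 13.1-fold higher (6.72 to 28.5) and 24.2-fold (10.6 to 68.3) without the deepest cells. Emb was 6.37-fold higher (2.26 to 22.1), and Xcl1, a chemokine for cross-presenting dendritic cells, was at 1652 CPM against 774 CPM, 2.14-fold higher (1.43 to 3.19). A single null sham cell held 44 of the 50 Xcl1 UMIs of that library, and without it null sham was at 97.2 CPM and the ratio was 17.0 (7.35 to 48.3). Id2, a factor that innate lymphocytes need, was 2.36-fold higher (1.67 to 3.36), and 1.96-fold (1.29 to 2.96) without the deepest cell of each library. By the rule for named genes the highest were Eif3e at 3.20-fold (1.70 to 6.20), Vcp at 3.04-fold and Eef1g at 2.91-fold, genes of translation and protein turnover.

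Much of the granzyme in null PNX came from 1 cell. It held 146 of the 179 Gzma UMIs, and without it and the deepest cell of null sham the Gzma ratio was 0.0938 (0.0641 to 0.133), against 0.411 (0.348 to 0.484) with all cells. Gzmb was 0.339 times the null sham level with all cells and 0.0709 times (0.0143 to 0.214) without these 2. Ccl5 was at 0.142 times without them and 0.212 times among cells with at least 2669 UMIs. The AT2 markers moved in the same contrast: the 14 listed summed to 10607 CPM in null PNX against 16587 CPM in null sham, with none at 0. Of 10 measured AT2 markers 5 were 2-fold lower and none higher. When the cell with most UMIs of each marker was left out, 3 were lower and 1 was higher. The transitional epithelial markers summed to 2058 CPM against 464 CPM, with 2 of 7 at 0 in all libraries. Of these only 1, Lgals3, had enough UMIs to be measured, with a log2 ratio of 1.97. In T cells the same transitional epithelial markers summed to 4844 CPM in null PNX and 511 CPM in null sham. Their part in the result was not tested. TMM scaling moved all ratios of this contrast by -0.28 on the log2 scale and left 20 of 24 named genes past 2-fold. A downward shift cannot undo a 2-fold lower call, so the 7 late maturation genes had to keep theirs. TMM scaling left 2 early maturation genes 2-fold higher, with Xcl1 at 1.76-fold and Id2 at 1.95-fold. Of the type 1 innate lymphoid cell and tissue residence list it left 1 gene, Ltb, 2-fold higher.

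In control mice PNX went with a different set of values. Of 427 genes measured in control PNX against control sham, 66, or 15.5%, were past 2-fold, 30 higher (7.03%) and 36 lower (8.43%). Gzma was at 15326 CPM in control PNX and 6916 CPM in control sham, 2.22-fold higher (1.88 to 2.61), and all 6 control PNX cells had it, against 11 of 15 control sham cells. Klf2, a factor of lymphocyte trafficking, was at 1690 CPM against 761 CPM, 2.22-fold higher (1.32 to 3.72). The class I gene H2-D1 was 2.01-fold higher (1.58 to 2.57), and Ran was 3.45-fold higher (1.34 to 9.28). Late maturation genes counted 5 higher and none lower of 9 measured, with a median log2 ratio of 1.07 beside -0.12 over all genes. With edgeR's TMM scaling 3 of the 9 were 2-fold higher (Gzmb, Cma1 and Ly6c2), with a median of 0.71 beside -0.48. Among the lower genes were Pim1, a survival kinase, at 0.229 times (0.0449 to 0.727), and Actb, β-actin, at 4451 CPM against 11244 CPM, 0.396 times (0.308 to 0.502). Immediate-early genes, which respond to dissociation and activation, counted 6 lower and none higher of 12 measured, with a median of -0.93. With edgeR's TMM scaling of these sums all ratios in this contrast moved by -0.35 on the log2 scale, which cannot undo a 2-fold lower call. Of the 23 named genes 14 stayed past 2-fold and none turned direction. Gzma was then at 1.73-fold, Klf2 at 1.74-fold and H2-D1 at 1.57-fold, all under 2-fold, and Ran at 2.70-fold. Without the deepest control PNX and control sham cells the ratios of Gzma, 1.75 (1.45 to 2.11), and Klf2, 1.97 (1.08 to 3.51), were under 2-fold. H2-D1 was at 1.78-fold (1.37 to 2.31) without the cell with most of its UMIs.

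Gzmb and Cma1 were higher too, with 29 Gzmb UMIs in 5 of 6 control PNX cells against 7 UMIs in 4 of 15 control sham cells, 10.7-fold (4.60 to 29.0) and 6.64-fold (2.55 to 19.2) without the deepest cells, and 902 CPM of Cma1 in control PNX against 87.0 CPM in control sham. A single cell held over 20% of the UMIs of each, so they were not among the 12 highest by the rule for named genes and are given as members of the late maturation list. Ly6e, a surface protein gene, had no UMI in the 6 control PNX cells, against 37 UMIs in 11 of 15 control sham cells, a ratio of at most 0.210, and at most 0.344 without the deepest cells.

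Between the sham-operated genotypes, more genes were higher than lower in null sham than in control sham. Of 774 genes measured, 95, or 12.3%, were past 2-fold, 69 higher (8.91%) and 26 lower (3.36%). Gzmb led, at 1454 CPM in null sham and 152 CPM in control sham, 9.55-fold higher (4.46 to 24.4), in 16 of 19 cells against 4 of 15. Irf8 was at 1160 CPM against 261 CPM, 4.45-fold higher (2.40 to 8.99), and Klrg1 at 495 CPM against 130 CPM, 3.79-fold higher (1.56 to 11.1). Cma1 was also 4.45-fold higher (1.54 to 17.6). Hsd11b1 and Cycs rested on 2 or 3 UMIs in control sham, with ratios of 8.89 (2.22 to 77.5) for Hsd11b1 and 6.88 (2.13 to 35.3) for Cycs. Ccl4 was at 4240 CPM against 544 CPM, 7.80-fold higher (5.17 to 12.3), and 2.53-fold (1.60 to 4.13) without the null sham cell that held 189 of its UMIs. Late maturation genes counted 4 higher and none lower of 11, with a median log2 ratio of 0.85 beside 0.08 over all genes.

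Lower in null sham was Hcst, the DAP10 adaptor of NKG2D, at 279 CPM against 696 CPM, 0.400 times (0.211 to 0.735). Most of the other named lower genes were processed pseudogenes of ribosomal proteins or unnamed models such as Gm10116, at 0.0418 times (0.00835 to 0.129), which share reads with their parent genes and are uncertain. AT2 markers summed to 16587 CPM in null sham against 13854 CPM in control sham, with 3 of 10 measured markers 2-fold higher, and none when the cell with most UMIs of each marker was left out, and their part in the result was not tested.

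With surgery shared, null PNX against control PNX had 390 genes measured, of which 65, or 16.7%, were past 2-fold, 43 higher (11% of those measured) and 22 lower (5.64%). Ccl5 was at 6202 CPM in null PNX and 39218 CPM in control PNX, a ratio of 0.158 (0.135 to 0.185). Of the 16 listed early maturation genes 5 were measured. All 5 were 2-fold higher, 3 of them only as bounds against 0 UMIs in control PNX. Xcl1 was at least 9.77-fold and Ly6e at least 7.71-fold higher, and Ltb was 9.0-fold higher (3.36 to 34.0). The 3 genes at 0, and Ltb with 4 UMIs in control PNX, reached the minimum of 20 UMIs only through null PNX. The count is thus shaped by that minimum and is a description. Late maturation genes counted 3 lower and none higher of 5 measured, with a median of -1.52 beside 0.06 over all genes. Of the type 1 innate lymphoid cell and tissue residence list all 3 measured genes, Rgs1, Ldha and Ltb, were 2-fold higher. Their median was 2.56. Ldha and Ltb reached 20 UMIs only through null PNX. Ldha, the lactate dehydrogenase A chain, was 2.78-fold higher (1.05 to 9.24). TMM scaling moved all ratios here by 0.16 on the log2 scale and left 8 of 9 named genes past 2-fold. An upward shift cannot undo a 2-fold higher call. This contrast rests on 8 null PNX cells and 6 control PNX cells, and the 4 contrasts share libraries with one another.

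**Figure D4:**
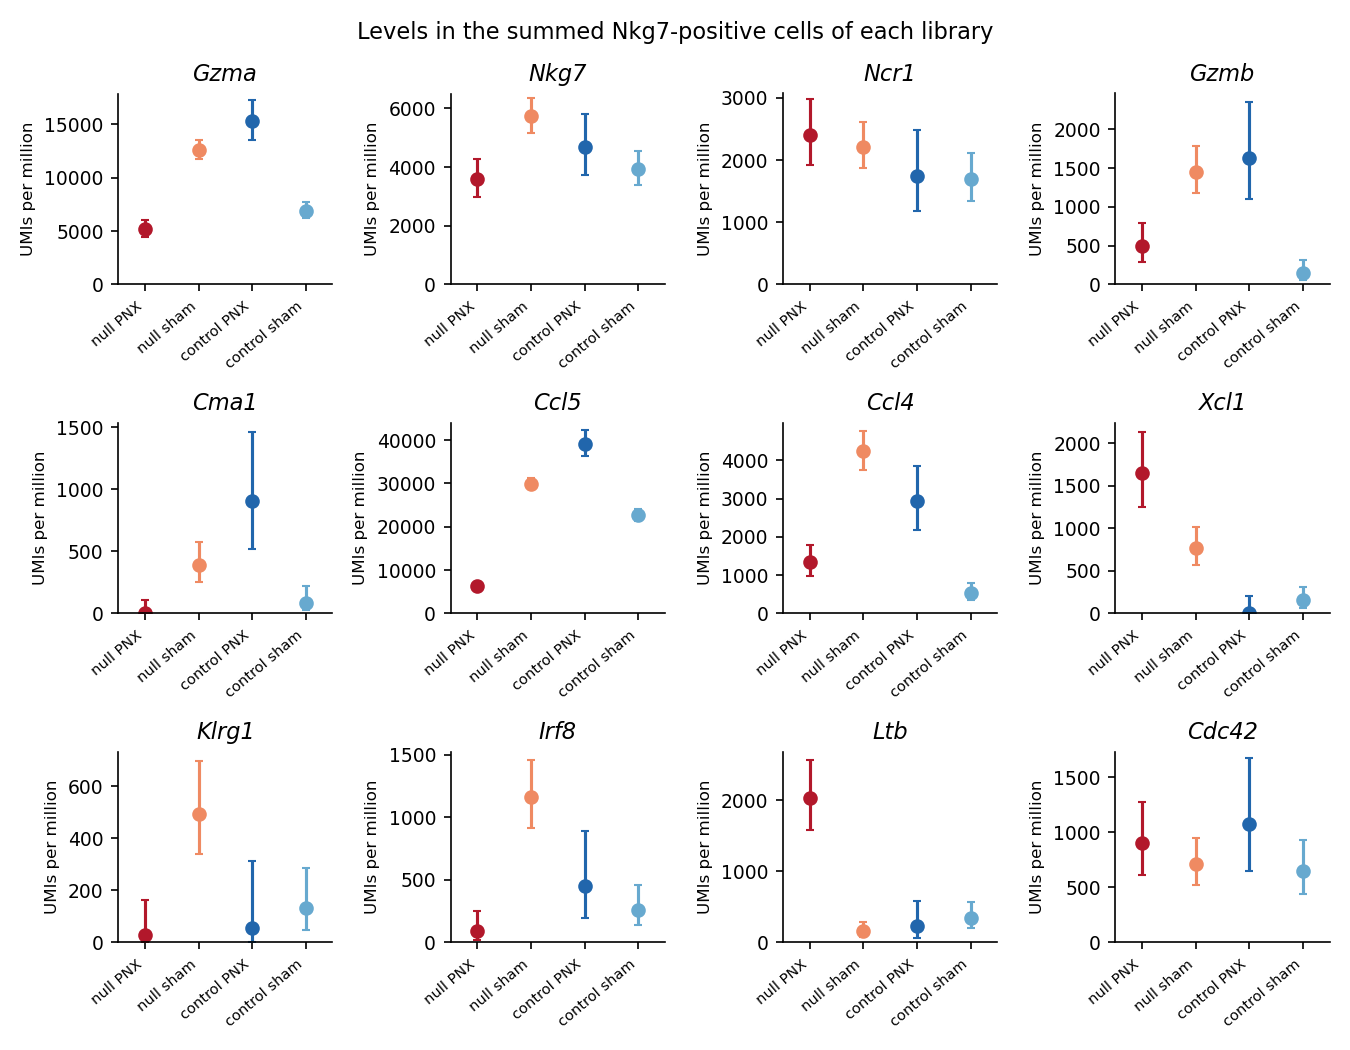
Each panel gives 1 gene in CPM of the summed Nkg7-positive members of each library, with exact Poisson 95% intervals of counting error, on axes from 0. Ccl5 was lowest in null PNX at 6202 and highest in control PNX at 39218, Ltb was highest in null PNX at 2029, and the intervals of the 4 libraries overlapped for Ncr1 and Cdc42.

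Cell by cell, the members differed in whether they held Gzma at all. Of the Nkg7-positive members, 5 of 8 in null PNX had no Gzma UMI (62.5%, 24.5 to 91.5), against 2 of 19 in null sham (10.5%, 1.30 to 33.1), 0 of 6 in control PNX (0%, up to 45.9) and 4 of 15 in control sham (26.7%, 7.79 to 55.1). A further null PNX cell had 1 Gzma UMI. The order of the libraries was the same among cells with at least 2669 UMIs, at 5 of 8 in null PNX, 1 of 12 in null sham, 0 of 3 in control PNX and 2 of 8 in control sham. With each cell thinned to 1000 UMIs Gzma was found in 2 of 8 null PNX cells, 17 of 19 null sham cells, 6 of 6 control PNX cells and 11 of 15 control sham cells. For comparison, thinned T cells had a Gzma UMI in 8 of 462, or 1.73%.

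All 11 Gzma-negative cells had Ncr1 and Nkg7, and Klrd1 was found in 8 of them. The choice of cells fixes part of this, since Nkg7 was required and a cell without Gzma had to reach the rule sum through Ncr1, Klrd1 and Klre1. Ncr1 was at 1752 CPM in them and 2154 CPM in the 37 Gzma-positive cells, a ratio of 0.813 (0.615 to 1.06). Other genes parted with Gzma. Klra4 had 0 UMIs in the 11 cells and 74 UMIs in the 37, a ratio of at most 0.127, and Klra7 and Cma1 were likewise at 0 against 51 and 45 UMIs. Klre1 was at 0.10 times (0.0203 to 0.302) and Gzmb at 0.0877 times (0.0236 to 0.230). Irf8 was at 0.0990 times (0.0201 to 0.298), Ccl3 at 0.0526 times (0.0107 to 0.156) and Ccl5 at 0.181 times (0.157 to 0.208). Klre1 is a rule gene, and Gzma made the split.

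On the other side, Ltb was at 1778 CPM in the Gzma-negative cells and 243 CPM in the Gzma-positive cells, 7.32-fold higher (4.71 to 11.6), with UMIs in 10 of 11 cells against 8 of 37. Emb was 6.62-fold higher (2.85 to 16.6), Cxcr6, a chemokine receptor of tissue-resident lymphocytes, had 18 UMIs in 7 of 11 cells against 2 UMIs in 2 of 37, and Tmem176b was 14.1-fold higher (4.65 to 57.3). Il7r had 11 UMIs in 5 cells against 1 UMI. Eomes had UMIs in 1 of 11 cells against 16 of 37, and Tbx21 in 4 of 11 against 12 of 37, both too sparse to rank. The cells were split by Gzma after the values were seen, and the 2 sides are unequally spread over libraries, with 5 of the 11 from null PNX. Cxcr6, Tmem176b and Il7r are among the markers listed for type 1 innate lymphoid cells. The NK label is thus not settled for the 11 Gzma-negative cells, and no cell type is named for them.

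Library by library, Ltb had UMIs in all 5 Gzma-negative null PNX cells, both null sham cells and 3 of the 4 control sham cells. The late maturation list summed to 6675 CPM in the 5 Gzma-negative and 16070 CPM in the 3 Gzma-positive null PNX cells, to 22997 CPM in the 2 Gzma-negative and 41979 CPM in the 17 Gzma-positive null sham cells, and to 5694 CPM in the 4 Gzma-negative and 41689 CPM in the 11 Gzma-positive control sham cells. These sums are in large part Ccl5, a gene of the list. Over all libraries Ccl5 alone was at 5384 CPM in the 11 Gzma-negative and 29769 CPM in the 37 Gzma-positive cells. Among Gzma-positive cells alone, Ccl5 in null PNX was 0.287 times the null sham level (0.241 to 0.340) and 0.226 times the control PNX level (0.188 to 0.271), on 3 null PNX cells. Of these, 1 cell had only 1 Gzma and 3 Ccl5 UMIs, yet held 5514 of their 16677 UMIs. The others had 88 and 57 Ccl5 UMIs, in 8233 and 2930 UMIs. The low ratio thus rests in part on a cell almost without Gzma. The Gzmb difference between null sham and control sham was 9.28-fold (3.84 to 29.3) among Gzma-positive cells and 9.55-fold among all.

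**Figure D5:**
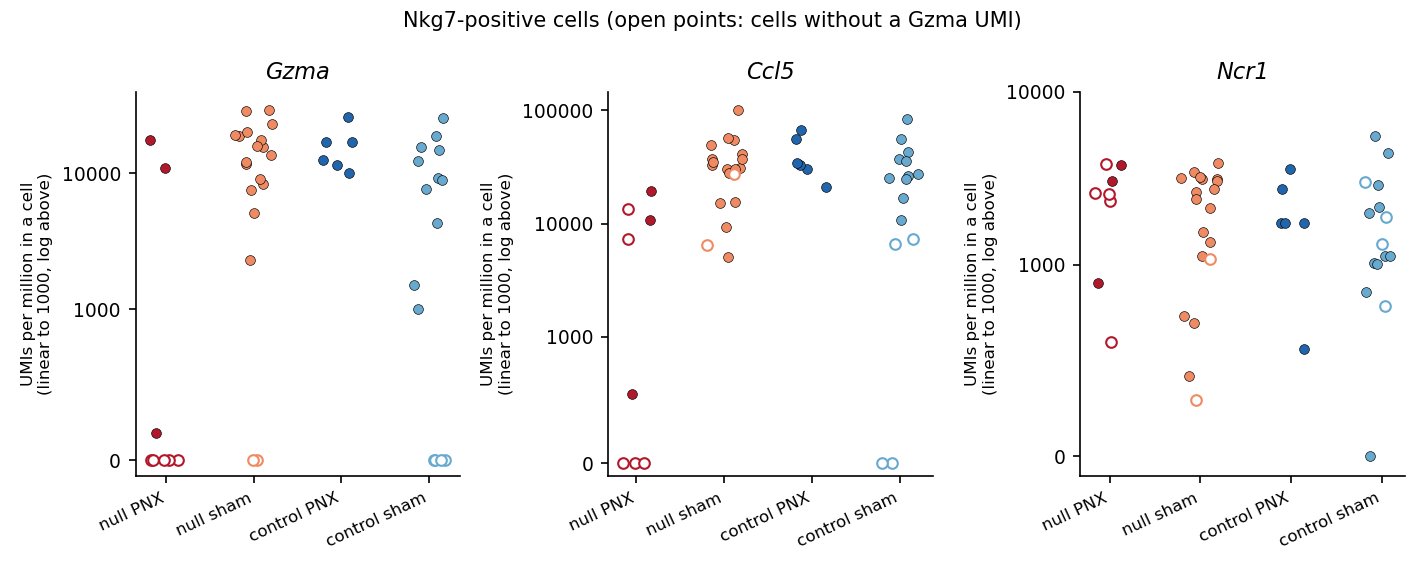
Each point is 1 of the 48 Nkg7-positive members, placed by library and by its own CPM of Gzma, Ccl5 or Ncr1 (y axis, linear to 1000 and log above), with open points for the 11 cells without a Gzma UMI. Open points make up 5 of the 8 null PNX cells, and their Ncr1 values lie among those of the filled points.

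Cells with mitotic genes were few. At least 3 UMIs over 8 mitotic genes (Top2a, Birc5, Ccnb2, Ccna2, Cdk1, Cdc20, Ube2c and Nusap1) were found in 1 of 8 null PNX cells, 2 of 19 null sham cells, 1 of 6 control PNX cells and 0 of 15 control sham cells, where 0 of 15 leaves a share of up to 21.8% by the exact binomial interval. T cells had 5 of 112 in null PNX, 4 of 175 in null sham, 2 of 66 in control PNX and 3 of 109 in control sham. The cell cycle genes summed to 8868 CPM in null PNX, 9732 in null sham, 7607 in control PNX and 3349 in control sham. In null PNX a single cell held 82.7% of those UMIs, in null sham 2 cells held 77.9% and in control PNX 1 cell held 72.6%. Without the deepest cell of each library the levels were 2017, 6025, 2991 and 3368 CPM in null PNX, null sham, control PNX and control sham.

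Markers of other leukocytes were also summed over the Nkg7-positive members. All 5 basophil and mast markers were at 0, and the neutrophil markers summed to between 0 and 124 CPM. The macrophage markers summed to 696 CPM in null PNX, 2135 in null sham, 507 in control PNX and 1044 in control sham, with 3 of 8 at 0, and the monocyte markers, which include the NK gene Ly6c2, to 985 CPM in null PNX, 727 in null sham, 1916 in control PNX and 631 in control sham, with 5 of 8 at 0.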

How the data were processed

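Droplet single-cell RNA-seq (10x 3′) was run on GFP+ cells sorted from digested mouse lung, with 1 library for each of 4 groups. The deposited table holds raw UMI counts for 17117 genes in 10077 cells, as the authors left them and with no word on filters in the labels. The submitters' processing notes name Cell Ranger 2.1.0, Seurat 2.3.4 and the mm10 build, and the role of each, the chemistry version and the annotation are not stated. Cells were placed in libraries by the ending of the barcode.

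Members were chosen by the rule that opens the results, and the members and gene lists were chosen with earlier results of these data known. UMIs were summed over members per library, so values are counts with exact Poisson intervals and ratios of CPM with exact binomial intervals (95%), which reflect counting error alone. Because every group was a single library, no test was run and no p-value is given; a gene was called at 2-fold either way if it had at least 20 UMIs over both sums. A sum of 0 was set at 3 counts for bounds. Named genes were the rule genes and Cdc42, up to 12 highest and 12 lowest per contrast whose richest cell held under 20% of the UMIs and whose level in Sftpc-high cells was below 5 times their level in the members, the 15 highest and 10 lowest against T cells, and examples from the lists. No doublet caller was run. Thinning to 1000 UMIs used 1 seed. Gene positions are from GENCODE M21 on mm10. The sums and ratios were tested on simulated counts. Tools were python 3.11.15, numpy 2.4.6, scipy 1.17.1, pandas 2.3.3, matplotlib 3.10.9, R 4.3.3 and edgeR 4.0.16, the last for TMM factors only. Alternatives were a rule sum of at least 3, minimums of 10 and 40 UMIs, thinning, TMM, and leaving out the deepest cell. Restricting to Nkg7-positive members, restricting to cells of at least 2669 UMIs, TMM scaling of the Nkg7-positive sums and leaving out the cell with most UMIs of a gene were added after seeing the data.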

Additional observations from a re-analysis of the deposited data

Results flagged for a closer look

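For Gzma and Itgb2 the difference between PNX and sham ran in opposite directions in the 2 genotypes, among Nkg7-positive members. Gzma is a rule gene, so its own values helped to choose the members. The Gzma ratio of PNX over sham was 0.411 in null mice and 2.22 in control mice. The Itgb2 ratio of PNX over sham was 0.268 in null mice and 2.11 in control mice, the second with a counting interval of 0.932 to 4.67 that includes no difference. Each group was 1 library, so the difference between the genotypes was not tested. The Gzma direction was the same in each genotype without the deepest cell of each library, at 0.0938 in null mice and 1.75 in control mice. In null PNX 1 cell held 146 of the 179 Gzma UMIs. For Itgb2 the direction was the same without the deepest cells, at 0.152 in null mice and 1.65 in control mice, the second under 2-fold. With TMM scaling the ratios in control mice were 1.73 for Gzma and 1.65 for Itgb2, both under 2-fold. In null mice they were 0.339 for Gzma and 0.221 for Itgb2.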

How the results depend on the processing

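Counts over all 79 members moved with the minimum of UMIs, which sets which genes are measured, and by larger factors with thinning. With at least 10 UMIs, 694 genes were 2-fold higher and 327 lower in null PNX against null sham, 708 and 294 in null PNX against control PNX, 373 and 210 in null sham against control sham, and 197 and 255 in control PNX against control sham. With at least 40 UMIs the counts were 102 and 60, 148 and 50, 39 and 22, and 28 and 28 in the same contrasts. With each cell thinned to 1000 UMIs they were 10 and 20, 10 and 10, 18 and 11, and 8 and 11, on fewer UMIs. Among Nkg7-positive members only, an alternative chosen after seeing the data, they were 50 and 72, 43 and 22, 69 and 26, and 30 and 36. With a rule sum of at least 3, 219 genes were higher in null PNX against control PNX. Without the deepest cell of each library 41 genes were higher in control PNX against control sham. TMM scaling gave 43 higher and 125 lower in control PNX against control sham, beside 80 and 74, and 71 lower in null PNX against control PNX. Against T cells, a rule sum of at least 3 gave 12 genes higher and 15 lower in all libraries, and Nkg7-positive members gave 7 lower. The cause of these last moves was not tested.

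The share of members in null PNX, 1.05% by the rule, was 0.675% with a rule sum of at least 3, 0.295% after thinning and 0.338% for Nkg7-positive members. Per 100 T cells it was 8.33 after thinning and 7.14 for Nkg7-positive members, beside 22.3. In the other 3 libraries every alternative run moved these values by less than their own counting interval. In Nkg7-positive members the Xcl1 ratio of null sham over control sham was 0.638 without the null sham cell with most of its UMIs, beside 5.08, an alternative added after seeing the data. Of the list medians 3 turned sign. The interferon response median in null PNX against control PNX was -0.0172 with a rule sum of at least 3, beside 1.31. The cell cycle median in that contrast was 0.0352 without the deepest cells, beside -1.14. The activating receptors median in null PNX against null sham was 0.15 in Nkg7-positive members, beside -1.01.

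No paired analysis was possible because each group was 1 library and the labels give no replicate numbers. The 6 to 19 Nkg7-positive members per library limit every value, and in control PNX a gene at 0 UMIs could still be at up to 169 CPM.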
